A study of Mus musculus with 6 samples.

Results

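The BAF complex is a chromatin remodeller that uses ATP to slide or evict nucleosomes. Its RNA was followed here through 10 listed subunit genes in regulatory T cells (Treg), the Foxp3-dependent CD4+ T cells that restrain immune responses. Every probe set whose platform annotation gives 1 of these symbols was taken. That yielded 19 of the 22626 probe sets tested, for 9 of the 10 genes. No probe set carried the symbol Smarcc2, which encodes the close relative of Smarcc1, so its expression was not analysed here. Smarcd2 had 3 probe sets and the other 8 genes had 2 each.

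The cells were CD4+CD25+ T cells taken by magnetic separation from C57BL/6 mice, either wild type (3 samples) or HDAC9-/- (3 samples). HDAC9 is a class IIa histone deacetylase, and the HDAC9-/- animals lack it. The series describes the samples as independent, but not whether each came from its own animal, and age, sex, treatment and the deleted exons are not stated. P-values therefore measure the spread between these samples, which may be technical. With 1 array per sample, precision is limited by how few arrays there are. The genes were chosen by measured values of this same contrast: a Smarcc1 probe set had ranked among the lower ones in HDAC9-/- Treg, and the other subunits were added for their place in the complex. The differences of the listed genes are therefore descriptions, given with standard errors and without tests.

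A BAF complex is built on a scaffold of Smarcc1 and Smarcc2 (BAF155 and BAF170), with Smarcb1, Smarce1 and a BAF60 subunit (Smarcd1, Smarcd2 or Smarcd3) as further core parts. One of a pair of ATPases, Smarca4 (Brg1) or Smarca2 (Brm), drives it, together with the actin-related protein Actl6a. Arid1a marks the canonical BAF form, whereas Arid2 and Pbrm1 mark the related PBAF form. In T cells Smarca4 and its partners are known for roles in thymocyte development and in activation, and Smarca4 is needed for Treg function.

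The promoters of Smarcc1, Smarca4 and Smarca2 are shown because these genes have the listed probe sets that varied widely between arrays and shared an array order, described further on. The sequences are from RefSeq (assembly GRCm38.p6). The promoter table used held 10 windows of 300 bases for 9 of the 10 listed genes, Smarcc2 among them and Smarce1 not. The deposited table names no genome build. The stretches lie on plus strands, at chr9:110131774-110132023 for Smarcc1, chr9:21615919-21616105 for Smarca4 and chr19:26604910-26605072 for Smarca2, and end before the first annotated base of the gene. Capitals mark matches to CGCATGC, the core of the motif of the factor NRF1, on either strand. In Smarcc1 the forward and reverse matches overlap, and Smarca2 has no match.

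Smarcc1: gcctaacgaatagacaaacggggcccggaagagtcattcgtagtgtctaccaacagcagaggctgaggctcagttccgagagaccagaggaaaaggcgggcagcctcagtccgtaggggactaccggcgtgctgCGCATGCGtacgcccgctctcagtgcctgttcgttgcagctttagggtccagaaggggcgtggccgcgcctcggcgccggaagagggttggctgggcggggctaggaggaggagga

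Smarca4: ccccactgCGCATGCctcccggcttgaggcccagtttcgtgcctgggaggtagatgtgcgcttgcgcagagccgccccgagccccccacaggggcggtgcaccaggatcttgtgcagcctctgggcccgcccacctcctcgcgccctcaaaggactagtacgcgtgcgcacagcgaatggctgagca

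Smarca2: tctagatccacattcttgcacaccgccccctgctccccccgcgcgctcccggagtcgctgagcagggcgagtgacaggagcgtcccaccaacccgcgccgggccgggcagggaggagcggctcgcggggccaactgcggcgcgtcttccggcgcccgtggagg

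The word CGCATGC, searched on both strands, was present in 3 of these 9 genes, Smarcc1, Smarca4 and Smarcb1, and in 3.58% of 32851 promoter windows of the same length. Over its whole window Smarca4 held 2 matches, of which the printed stretch has 1. The SP word GGGCGG, likewise on both strands, was in all 9 of them and in 35.7% of all windows. The ETS word CCGGAAG was in Smarcc1 and Smarca2 and in 8.86% of all windows. Smarcc1 had 33 CpG dinucleotides in its window, as did Smarca4, and Smarca2 had 29. Other listed genes held 21 to 48, apart from Smarcd2 with 4, and the median over all windows was 7. The Smarcd2 window, on the minus strand, ends at base 106267882, inside the gene, whose annotated end is at 106272998. Its count therefore describes an internal start. These words were picked after the sequences were seen, and a match is a description of the letters alone.

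Before the subunits, the arrays themselves were checked. Pairs of arrays correlated at 0.990 to 0.997 over probe sets. Wild type replicate 3 stood apart, averaging 0.991 with the rest where the others averaged 0.994 to 0.996. Its median log2 value was 5.69, against 5.77 to 5.81 on the others. In limma's array weights, where a lower weight marks a noisier array, it had 0.298 and the others 0.96 to 1.96. Foxp3 read 10.29 to 10.38 on wild type arrays and 10.33 to 10.44 on HDAC9-/- arrays, and Cd4, Cd3e, Il2ra and Ctla4 were likewise bright, so the labelled cell type had its defining markers. The exception was the Ikzf2 (Helios) probe set, dimmer than the array median (5.76). Markers of other cell types were bright as well, with the B cell marker Ighm at 13.44 to 13.92 and the myeloid marker S100a8 at 10.30 to 12.03. The Hdac9 probe set was dim on every array (3.50 to 4.10) and differed by -0.10, and since the deleted exons are not given it does not check the genotype.

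Several features of the samples moved with genotype. The 3-prime minus 5-prime gap of the Gapdh controls, which widens with RNA breakage or short labelling, was 0.03 to 0.11 (log2) on wild type arrays and 0.15 to 0.28 on HDAC9-/- arrays. The same gap of the actin controls overlapped, at 0.33 to 0.46 on wild type arrays and 0.42 to 0.60 on HDAC9-/- arrays. All 10 measured myeloid markers had positive differences, and their summed linear signal was 4472 to 7854 on wild type arrays and 9939 to 11630 on HDAC9-/- arrays. Of those 10, Itgam, Cd14 and Adgre1 were dimmer than the array median, and S100a8 and S100a9, the brightest, weigh most in a linear sum. The mean log2 value of the 10 overlapped, at 7.24 to 7.66 on wild type arrays and 7.63 to 8.10 on HDAC9-/- arrays. Csf1r and Fcgr3 read lower on HDAC9-/- replicate 3 (7.01 and 5.45) than on any wild type array. All 9 measured cycling-cell genes were also positive, with summed signals of 5862 to 6200 and 6374 to 6827. B cell markers summed to 13629 to 16283 and 11922 to 13597, and CD8 T and natural killer cell markers to 2659 to 3462 and 2949 to 3675. The B cell sum is weighted to Ighm, the brightest of the 5 measured B cell markers (difference -0.22). Pax5 was also negative, Cd79a, Cd79b and Ms4a1 were positive, and the median difference of the 5 was 0.07. The part of these features in the differences below was not tested. In bulk RNA, fewer cells of a type and less RNA per cell cannot be told apart.

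Smarcc1, the scaffold, gave conflicting readings from its 2 probe sets, which the annotation ties to the same transcript accession. Probe set 1423417_at read 5.58, 6.43 and 5.69 (RMA log2 values) on wild type arrays 1, 2 and 3 and 5.01, 5.03 and 5.10 on HDAC9-/- arrays 1, 2 and 3. Every HDAC9-/- array lay below every wild type array, by a gap of 0.48 between the nearest values. The means were 5.90 ± 0.46 and 5.05 ± 0.05 (SD, n = 3), differing by -0.85 (standard error 0.21), a linear signal 1.81-fold lower. Its mean over the 6 arrays lay under the array median of 5.76, and with it 16 of 22626 probe sets (0.0707%) had a difference that low or lower.

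The brighter Smarcc1 probe set, 1423416_at, did not share that pattern. It read 8.91, 9.16 and 8.53 in wild type and 8.65, 8.97 and 8.97 in HDAC9-/- samples. The groups overlapped fully, with means of 8.87 ± 0.32 and 8.87 ± 0.19 (SD, n = 3) and a standard error of 0.17 on a difference within 0.01 of 0. The gap of 0.85 between the differences of the 2 probe sets was matched or exceeded by 20 of 4956 genes with at least 2 probe sets (0.404%), against a median gap of 0.157. Wild type replicate 2 was the highest array for both probe sets, and without it the difference of 1423417_at was -0.59. The Gapdh 3-prime to 5-prime gap and the summed linear myeloid signal also separated the genotypes on these arrays. The actin 3-prime to 5-prime gap and the mean log2 value of the myeloid markers overlapped between genotypes. The part of these features in the readings of either probe set was not tested.

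**Figure D1:**
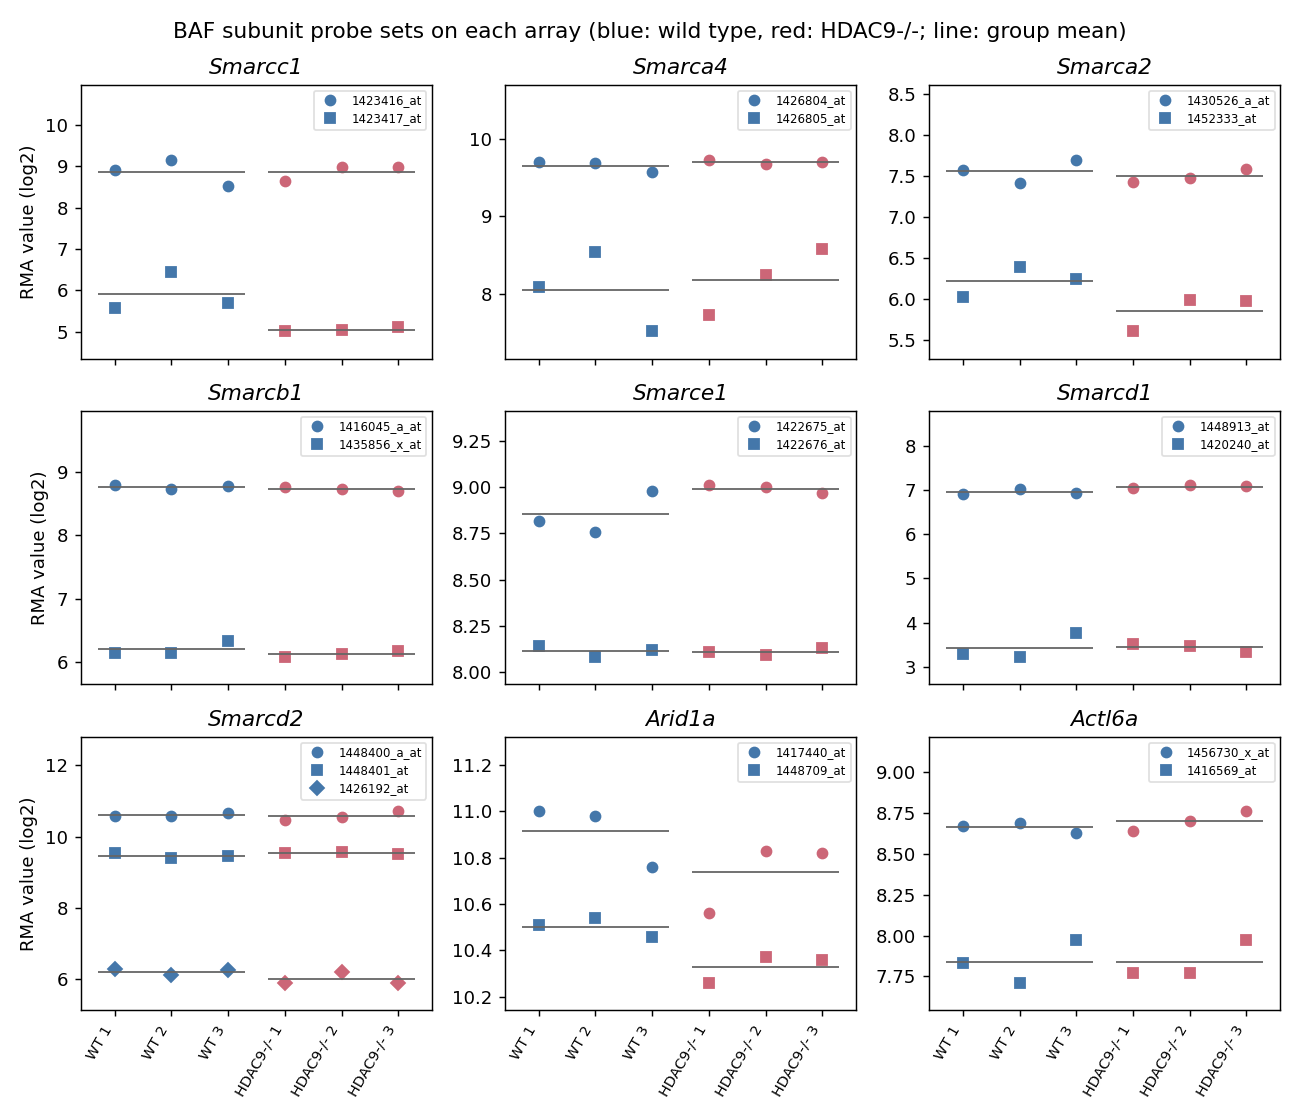
RMA log2 values (vertical axis) of each BAF subunit probe set on the 6 arrays (horizontal axis), wild type in blue and HDAC9-/- in red, with 1 symbol shape per probe set and a grey line at each group mean of 3 arrays; each panel has its own scale. Smarcc1 1423417_at separates the genotypes (5.58 to 6.43 against 5.01 to 5.10) and the brighter Smarcc1 probe set does not.

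The ATPase genes also had probe sets that behaved differently. For Smarca2 (Brm), probe set 1452333_at read 6.03, 6.39 and 6.25 in wild type and 5.61, 5.99 and 5.98 in HDAC9-/- samples. The HDAC9-/- arrays were all lower, but by a gap of 0.04 between the nearest arrays, and the difference was -0.36 with a standard error of 0.14, or -0.24 without HDAC9-/- replicate 1. The brighter Smarca2 probe set, 1430526_a_at, read 7.42 to 7.70 and 7.43 to 7.59, overlapping, with a difference of -0.06 (standard error 0.09).

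Smarca4 (Brg1) was steady in its brighter probe set and scattered in the other. Probe set 1426804_at read 9.70, 9.68 and 9.57 in wild type and 9.73, 9.67 and 9.70 in HDAC9-/- samples, differing by 0.05 (standard error 0.07.) Probe set 1426805_at read 8.10, 8.54 and 7.53 in wild type and 7.74, 8.25 and 8.58 in HDAC9-/- samples. Its spread within a genotype (pooled SD 0.467) was larger than that of 98.5% of probe sets, and its difference of 0.13 was smaller than its standard error of 0.30. Its sign rested on single arrays, at -0.13 without wild type replicate 3, -0.06 without HDAC9-/- replicate 3 and 0.38 without wild type replicate 2.

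The remaining core subunits differed little. Smarcb1, which anchors the complex to the nucleosome, read 8.79, 8.73 and 8.78 in wild type and 8.77, 8.74 and 8.70 in HDAC9-/- samples in probe set 1416045_a_at. Its difference there was -0.03 with a standard error of 0.06, and 1435856_x_at gave -0.08 with 0.08. Smarce1, an HMG-box DNA-binding subunit, gave 8.11 ± 0.03 and 8.11 ± 0.02 in 1422676_at (SD, n = 3). Its other probe set, 1422675_at, read 8.82, 8.76 and 8.98 in wild type and 8.97 to 9.01 on HDAC9-/- arrays, differing by 0.14 (standard error 0.08). The groups overlapped through wild type replicate 3 alone, and without wild type replicate 2 the difference was 0.09.

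Among the BAF60 subunits, Smarcd1 was the one listed gene with a probe set higher on all HDAC9-/- arrays. Probe set 1448913_at read 6.91, 7.01 and 6.92 in wild type and 7.04, 7.10 and 7.08 in HDAC9-/- samples, a gap of 0.02, differing by 0.13 (standard error 0.07). The other Smarcd1 probe set, 1420240_at, was among the dimmest, at 3.22 to 3.77. Smarcd2, known for its role in granulocyte development, had differences of -0.03 and 0.07 in its brighter probe sets 1448400_a_at and 1448401_at and of -0.21 in the dimmer 1426192_at, with standard errors of 0.08, 0.07 and 0.10. All 3 overlapped between genotypes. Their signs disagreed.

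Arid1a, the DNA-binding subunit of canonical BAF, was the listed gene whose probe sets had the closest differences over all 6 arrays. Probe set 1448709_at read 10.51, 10.54 and 10.46 in wild type and 10.26, 10.37 and 10.36 in HDAC9-/- samples. All 3 HDAC9-/- arrays were lower, with a gap of 0.08. Its difference was -0.17 with a standard error of 0.07. Probe set 1417440_at read 11.00, 10.98 and 10.76 in wild type and 10.56, 10.83 and 10.82 in HDAC9-/- samples, differing by -0.18 (standard error 0.11), and its groups overlapped through wild type replicate 3. Without HDAC9-/- replicate 1 the differences were -0.09 in 1417440_at and -0.13 in 1448709_at. Actl6a, the actin-related subunit of dividing and stem cells, had differences of 0.04 and less than 0.01 (standard errors 0.07 and 0.10).

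**Figure D2:**
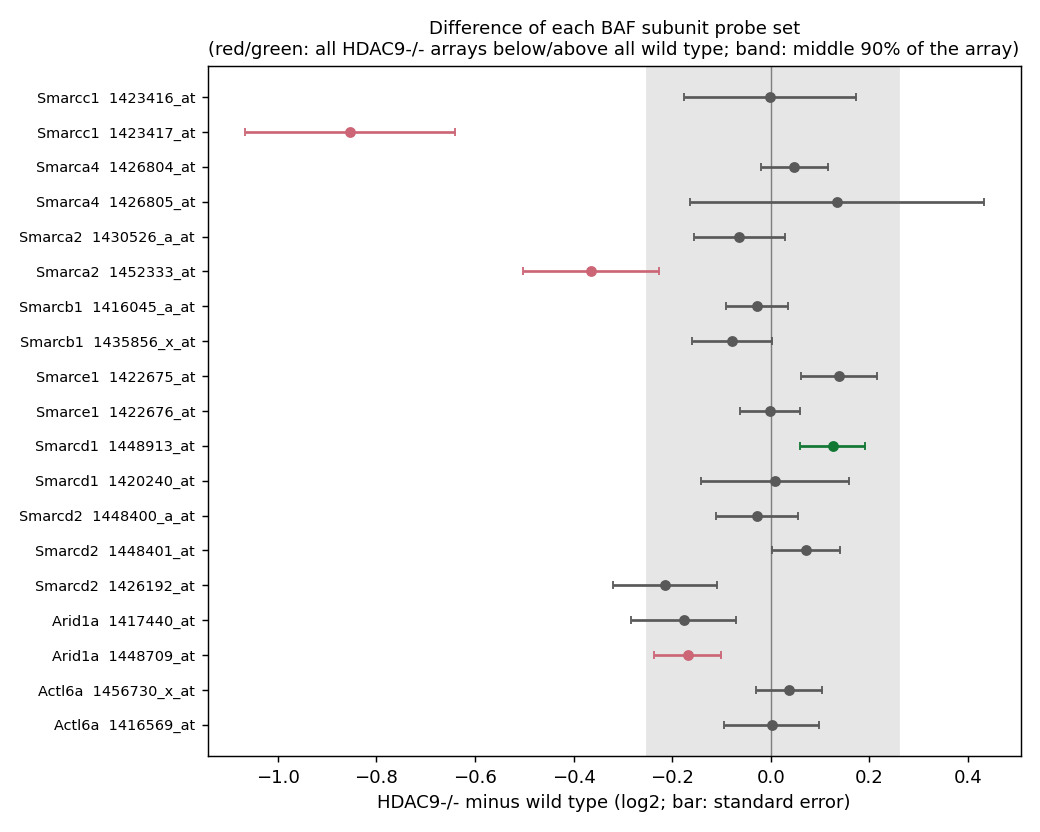
HDAC9-/- minus wild type difference (log2, horizontal axis) of the 19 BAF subunit probe sets (vertical axis), with bars of 1 standard error from limma. Red and green points have all HDAC9-/- arrays below or above all wild type arrays, and the grey band spans the middle 90% of all tested probe sets, -0.25 to 0.26; Smarcc1 1423417_at (-0.85) and Smarca2 1452333_at (-0.36) lie outside it.

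Over the 19 probe sets, 11 differences were negative (57.9%), where 47.8% of all tested probe sets were, and the median was -0.0016 against 0.0078 over all. The HDAC9-/- arrays were all lower for 3 of 19 (Smarcc1, Smarca2 and Arid1a, 1 probe set each), where the same held for 6.04% of all probe sets. They were all higher for 1 of 19 (Smarcd1), against 11.0% of all. Because the contrast helped to choose the genes, nothing is read from these counts. The median was -0.047 without wild type replicate 2 and -0.061 without HDAC9-/- replicate 3.

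Variation between arrays of the same genotype showed a shared order among the scattered probe sets. Of the 5 listed probe sets whose pooled SD was above the 75th percentile of the array, 4 had wild type replicate 2 as the highest wild type array and HDAC9-/- replicate 1 as the lowest HDAC9-/- array. These were both Smarcc1 probe sets, Smarca4 1426805_at and Smarca2 1452333_at. For Smarcc1 1423417_at the HDAC9-/- part of the order rested on readings of 5.01 against 5.03 and 5.10. Smarcd1 1420240_at was the fifth and did not share the order. Among all probe sets above that percentile 22.7% had this order. Of the 14 steadier listed probe sets 3 had it (21.4%), against 8.74% of all steadier probe sets. This order was looked for after the values were seen.

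The same arrays stood at the ends of the actin control. The actin 3-prime to 5-prime gap was 0.33 in wild type replicate 2, the narrowest, and 0.60 in HDAC9-/- replicate 1, the widest, and 0.41 to 0.47 on the other arrays. Wild type replicate 3 and HDAC9-/- replicate 3 had actin gaps of 0.46 and 0.47 and Gapdh gaps of 0.05 and 0.15. They were the lowest and highest arrays of Smarca4 1426805_at, at 7.53 and 8.58. The Pbrm1 probe sets 1427266_at and 1426878_at, from the PBAF subunit that reads acetylated histones, followed the order too. The first read 8.39, 9.18 and 7.87 in wild type and 7.79, 8.49 and 8.80 in HDAC9-/- samples, a span of more than 1 log2 unit within each genotype. The steady Pbrm1 probe set, 1426877_a_at, read 9.45 to 9.73 on all 6 arrays. For Smarca4 and Pbrm1, then, replicate arrays disagreed more than the genotypes did in one probe set and little in another. The part of RNA integrity or labelling in this order was not tested.

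**Figure D3:**
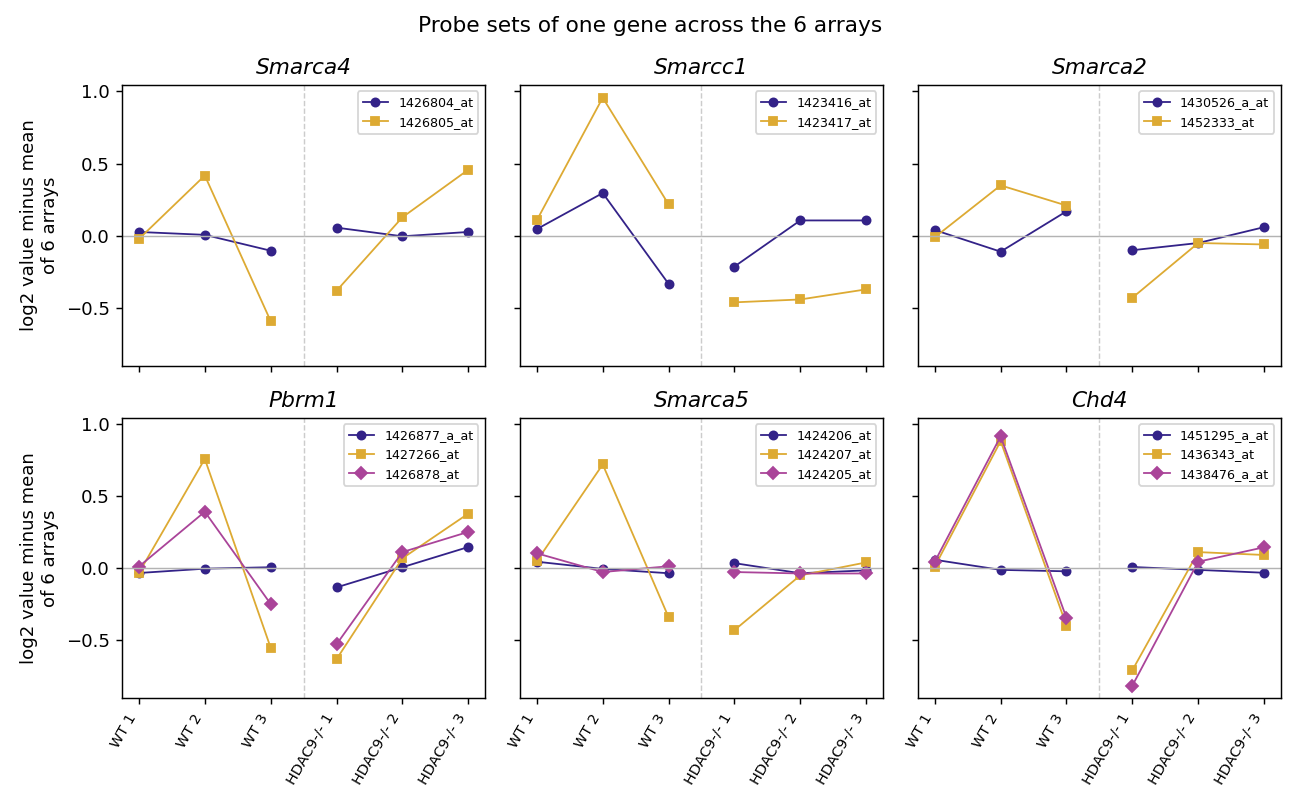
Log2 value minus the mean of the 6 arrays (vertical axis) for probe sets of 3 listed BAF genes, Pbrm1 and 2 ATPases of other remodellers on each array (horizontal axis); lines join arrays of a genotype only to guide the eye. One probe set of Smarca4, Pbrm1, Smarca5 and Chd4 stays near 0 while another varies. Among wild type arrays the varying probe set is highest in replicate 2 and lowest in replicate 3. Among HDAC9-/- arrays it is lowest in replicate 1.

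Genes whose pattern over the 6 arrays was most like Smarcc1 1423417_at were sought among 10373 probe sets of 1 gene with a mean at or above the array median. The closest was Rsrc2 1451640_a_at, with a Pearson correlation of 0.998. It read 7.28, 7.79 and 7.30 in wild type and 6.86, 6.92 and 6.96 in HDAC9-/- samples. Next came Zfand6 1422031_a_at (0.986), Serinc1 1415838_at (0.982), Dcun1d1 1452079_s_at (0.975) and Ptger4 1421073_a_at (0.972), a prostaglandin E2 receptor gene. These arrays share both the genotype difference and wild type replicate 2 as the highest, which sets the correlations. Other probe sets of these genes differed in size or direction. The difference was -0.55 for Rsrc2 1451640_a_at and -0.06 for the brighter 1454074_a_at, and -0.38 for Zfand6 1422031_a_at and -0.05 for the brighter 1422032_a_at. For Serinc1 it was -0.31 in 1415838_at and -0.24 in 1454811_a_at, both lower on all HDAC9-/- arrays, but 0.34 in 1437513_a_at. Within the listed genes, Arid1a 1448709_at (0.856) and Smarca2 1452333_at (0.841) were most like Smarcc1 1423417_at, and Smarcd2 1448401_at (-0.857) and Smarce1 1422675_at (-0.854) most unlike it.

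The other subunits of BAF, PBAF and the noncanonical form were taken from a list made by membership. Of 21 listed genes 16 were measured, with 23 probe sets, and 0 passed an adjusted p of 0.05 in either direction (limma, Benjamini-Hochberg, smallest adjusted p = 0.448), where 3 of all 22626 probe sets did (0.0133%). At an unadjusted p below 0.05 there were 3 higher and 1 lower, 4 of 23 where 8.78% of all probe sets had one. The median difference was 0.012, with 12 positive and 11 negative. The largest was Bcl11a 1419406_a_at, from a zinc-finger subunit best known from B cells and neurons, at 4.75, 4.56 and 4.54 in wild type and 5.06, 5.07 and 4.80 in HDAC9-/- samples (difference 0.37, limma adjusted p = 0.448). Its other probe set differed by less than 0.01, and both were dim.

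The BAF60 paralogue Smarcd3, best known from heart muscle, read 4.46, 4.69 and 4.44 in wild type and 4.79, 4.82 and 4.89 in HDAC9-/- samples. Its difference of 0.31 did not pass (limma adjusted p = 0.454), and its mean was below the array median. Ss18, a subunit of canonical and noncanonical BAF, read 9.95, 9.89 and 9.84 in wild type and 9.76, 9.71 and 9.71 in HDAC9-/- samples in 1419360_a_at, a difference of -0.17 (limma adjusted p = 0.557). Its dimmer probe set, 1419361_at, overlapped between genotypes and differed by -0.08. Bcl11b, a T cell identity factor that joins BAF, was bright at 10.95 to 11.30 and 10.95 to 11.37, with a difference of 0.04. Arid2 differed by 0.08.

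Other families of ATP-driven remodellers gave 0 calls among 57 probe sets of 31 measured genes, out of 38 listed (limma, smallest adjusted p = 0.398), with 6 of 57 at an unadjusted p below 0.05, where 8.78% of all probe sets had one. For the ISWI family, which spaces nucleosomes, 14 of 15 probe sets of 5 genes were negative, where 47.8% of all probe sets were, with a median of -0.13. None of the 15 had an unadjusted p below 0.05. The count was 10 of 15 without wild type replicate 2, with a median of -0.063, and 12 of 15 without HDAC9-/- replicate 1, with a median of -0.073. Bptf 1427311_at, from the large subunit of the NURF complex, read 4.86, 5.92 and 4.66 in wild type and 4.40, 4.55 and 4.47 in HDAC9-/- samples (difference -0.67, limma adjusted p = 0.594), and without wild type replicate 2 its difference was -0.28. Its brightest probe set, 1456615_a_at, differed by -0.01. Baz1b 1420975_at differed by -0.29, or -0.13 without HDAC9-/- replicate 3, and Baz2a 1438192_s_at by -0.11. The brightest Baz1b probe set, 1434824_at, differed by -0.08. Baz1b 1437420_at differed by -0.18 and 1450068_at by -0.81 (standard error 0.51). The groups overlapped in each of these other Baz1b probe sets.

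In the CHD and NuRD family, whose NuRD complex couples remodelling to histone deacetylation, 13 of 27 probe sets were negative and the median was 0.0083. Chd1 1431166_at read 7.66, 7.63 and 7.72 in wild type and 7.94, 7.96 and 8.06 in HDAC9-/- samples, a difference of 0.32 (limma adjusted p = 0.398). The other Chd1 probe sets differed by -0.15 and -0.14. Hdac1, the class I deacetylase of NuRD, read 10.22, 10.13 and 10.21 against 9.96, 9.78 and 9.88, a difference of -0.31 (adjusted p = 0.422). Rbbp4 1454875_a_at, from a histone-binding subunit, differed by -0.27 (adjusted p = 0.517), and its 2 brighter probe sets by 0.02 and 0.01. In the INO80, SRCAP and TIP60 group 4 of 15 probe sets were negative, with a median of 0.035. The smallest p-values were those of Ino80e (difference 0.16), Znhit1 (difference 0.11) and Actr8 (difference -0.05). None of these genes passed the adjusted threshold.

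**Figure D4:**
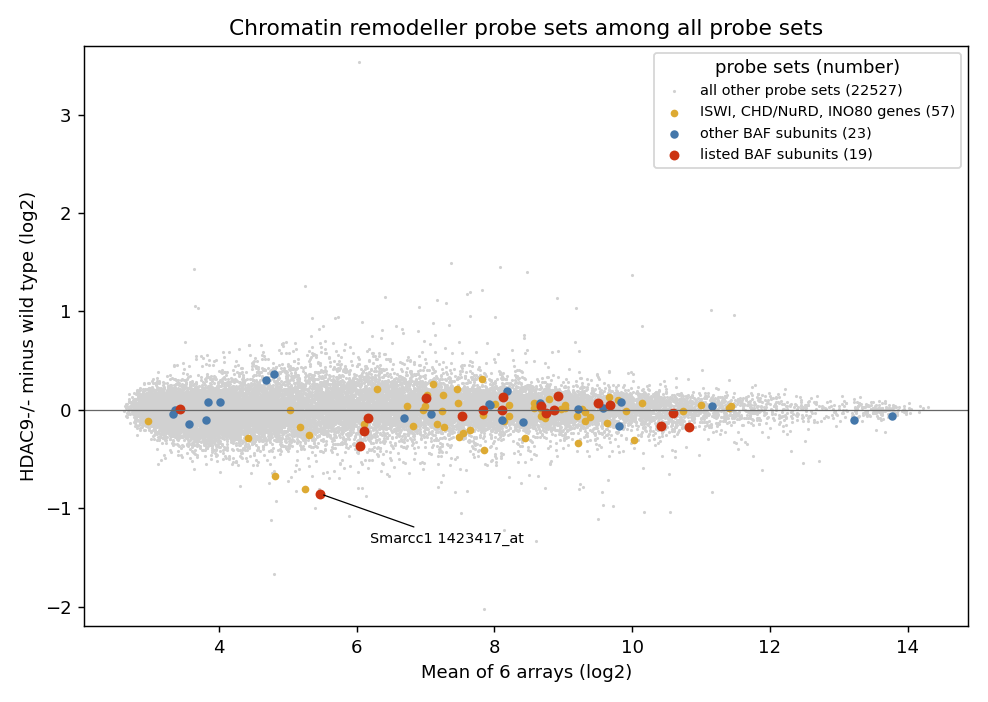
HDAC9-/- minus wild type difference (log2, vertical axis) against the mean of the 6 arrays (log2, horizontal axis) for all 22626 tested probe sets, with BAF subunits and other remodeller genes coloured. Smarcc1 1423417_at, at -0.85, is the lowest coloured point; a pair of ISWI probe sets lie near it, and the rest fall within the cloud of all probe sets.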

How the data were processed

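Total RNA of 6 CD4+CD25+ T cell samples was biotin-labelled and hybridised to expression arrays, 1 per sample. The deposited table holds log2 values per probe set, which the authors made using RMA (per the submitters' processing notes, which give no version). RMA compresses the differences of dim probe sets. Groups and replicate numbers came from the sample titles.

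Of 22690 probe sets, 64 controls were left out and 22626 tested without a filter. Platform symbols (20380 probe sets with 1 symbol, 691 with several, 1555 with none) were updated by Entrez identifier through RefSeq's gene table for GRCm38.p6. The difference is HDAC9-/- minus wild type, from limma 3.58.1 (R 4.3.3; lmFit, eBayes, genotype alone) with Benjamini-Hochberg adjustment over all probe sets and a threshold of 0.05. Standard errors are limma's. The procedure was tested on simulated data. Members and lists were chosen with earlier results of these data known. Named genes were all members, every called gene or else the 3 smallest p-values per list, and the 5 closest patterns to Smarcc1. Other genes named (Bcl11b, Arid2, Pbrm1, Smarca5, Chd4, Gatad2a) were chosen after their values were seen. Promoters were searched in Python 3.11.15 and figures drawn with matplotlib 3.10.9. Alternatives were normalization, a brightness filter, the variance prior, array weights, a replicate block, left-out arrays and 1 probe set per gene.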

Additional observations from a re-analysis of the deposited data

How the results depend on the processing

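The Smarcc1 1423417_at difference ran from -0.59 to -1.01 with 1 array left out and was -0.88 with array medians aligned. Leaving out 1 array could not change its sign, because every HDAC9-/- array lay below every wild type array. Smarcc1 1423417_at itself is lost when dim probe sets are left out. The difference of 1423416_at ran from -0.17 to 0.15 with 1 array left out. The median over the listed probe sets ran from -0.061 to 0.00046 with 1 array left out, and negative differences, 11 of 19 with all arrays, numbered 9 without wild type replicate 3 and 9 to 13 over the arrays left out, 13 with array medians aligned, 12 with quantile normalization repeated and 5 of 9 with 1 probe set per gene. The count called over the array was 3, against 15 with a trended and robust prior, 1 with 1 probe set per gene, 6 with array weights, 0 to 6 with 1 array left out, 3856 for groups that do not overlap and 1987 at an unadjusted p below 0.05. With the replicate block it was 0. Same-numbered samples deviated with correlations of 0.04, 0.10 and -0.25, so the numbers were not taken to pair them. No other BAF subunit or remodeller probe set was called by limma under any of the alternatives. Over the 31 single probe set differences named, 366 values were recomputed and 22 had the other sign, in 7 probe sets with differences no larger than 0.13 in size. Smarce1 1422676_at moved by more than its SD with medians aligned, to -0.027.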

Other observations

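Chd4, the ATPase of NuRD, and Smarca5, the ATPase of ISWI complexes, each had a steady probe set beside a scattered one. Chd4 1451295_a_at read 9.28 to 9.37 on all arrays, while 1436343_at read 9.23, 10.10 and 8.82 in wild type and 8.51, 9.33 and 9.31 in HDAC9-/- samples. Smarca5 1424206_at read 9.88 to 9.96 on all arrays, while 1424207_at read 8.50, 9.17 and 8.11 in wild type and 8.02, 8.40 and 8.49 in HDAC9-/- samples. Among remodeller probe sets above the 75th percentile of pooled SD, wild type replicate 2 was the highest wild type array and HDAC9-/- replicate 1 the lowest HDAC9-/- array for 11 of 15 (73.3%), where 22.7% of all such probe sets had that order.

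The NuRD subunit Gatad2a had positive differences in all its probe sets, at 0.21, 0.22, 0.07 and 0.01. The dimmer 1451198_at and 1455505_at were higher on all HDAC9-/- arrays (limma adjusted p = 0.549 each), and the brighter 1423992_at and 1451197_s_at overlapped.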
